A study of Mus musculus with 6 samples.

Results

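The genes described here are the core of the Hippo-YAP pathway: the effectors Yap1 and Wwtr1 (which encodes TAZ), the DNA-binding partner Tead1, the kinases Stk3 and Stk4 (MST2 and MST1) and Lats1 and Lats2, the adaptor Sav1 and the upstream regulators Nf2 and Amotl2. They were named by symbol and not by a rule on measured values, but earlier results of these data were known when they were chosen. Of the 10 genes, 9 had a row among the 12125 genes of the deposited table, and Sav1 was not analysed here. All 9 were among the 9966 genes tested, which are those with 10 or more normalized counts in 3 or more libraries. RNA was sequenced from 6 libraries of 500 sorted kidney cells, 3 labelled Trf1+/+ and 3 labelled Trf1flox/flox, each from its own mouse. Trf1 encodes a shelterin protein that protects telomeres. Mice of both genotypes were male and female, carried Col1a2-CreERT2 and the KFP reporter allele, were 6 to 8 weeks old when treatment began, and received tamoxifen 3 times a week for 8 weeks. Controls therefore differ from the floxed mice in the Trf1 alleles, while Cre, KFP and tamoxifen are common to all. CreERT2 is driven by Col1a2, a collagen gene of fibroblasts, so deletion was directed at cells that express it. The comparison asks whether these genes differ between libraries labelled Trf1flox/flox and Trf1+/+.

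In the Hippo pathway, STK3 and STK4 with SAV1 activate LATS1 and LATS2, and these phosphorylate YAP and TAZ, which are then held in the cytoplasm or degraded. When the kinases are quiet, YAP and TAZ enter the nucleus and switch on genes through TEAD proteins. In the kidney the pathway is known for its roles in tubule growth, in repair after injury and in the response of fibroblasts to stiff matrix. The pathway acts largely through protein phosphorylation and location, and the values here are transcript levels.

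TEAD proteins bind the letters GGAATG, which read CATTCC on the opposite strand. Both forms were looked for in the RefSeq promoter windows (GRCm38.p6), which run from 250 bases before to 50 bases after a transcript start. Of the 9 genes, 7 had such a window, and the windows of Amotl2, Lats2, Wwtr1 and Yap1 held the letters once. These 4 stretches are shown because they carry the letters that the pathway's own DNA-binding partner reads. Each is written 5′ to 3′ on the strand of the gene, with the matched letters in capitals.
Yap1, chr9:8004675-8004794, minus strand: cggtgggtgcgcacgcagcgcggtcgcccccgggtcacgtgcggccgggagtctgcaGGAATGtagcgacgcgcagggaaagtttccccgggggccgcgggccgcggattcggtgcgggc
Wwtr1, chr3:57575984-57576103, minus strand: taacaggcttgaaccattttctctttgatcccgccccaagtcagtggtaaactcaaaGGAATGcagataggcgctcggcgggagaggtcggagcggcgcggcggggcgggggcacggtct
Amotl2, chr9:102717682-102717801, plus strand: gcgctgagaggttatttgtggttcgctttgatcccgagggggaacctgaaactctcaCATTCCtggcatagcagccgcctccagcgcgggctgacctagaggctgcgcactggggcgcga
Lats2, chr14:57746104-57746176, minus strand: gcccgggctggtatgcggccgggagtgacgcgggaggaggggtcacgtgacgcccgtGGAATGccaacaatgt

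The match in Yap1 began 141 bases before the start, and that in Amotl2 65 bases before it. In Wwtr1 it lay 136 or 170 bases before the start, depending on which of its annotated starts is used. In Lats2 it began 4 bases after 1 of its starts, and the window of its other start held none. The windows of Lats1, Nf2 and Stk4 held none, and no window was used for Tead1 or Stk3. By gene, 4 of the 7 pathway genes with a window held the letters (57.1%), against 14.3% of the 9136 genes of the table that had one. Of the genes with a window in the lists described below, 10 of 45 wider pathway genes (22.2%) and 4 of 9 YAP and TAZ targets (44.4%) held them. Over all 32851 windows the share was 14.7%. A match describes letters in a window and does not show that a TEAD protein binds there.

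Each library held between 10263382 and 12248797 reads on the listed genes. A single read was worth 0.689 to 1.09 normalized counts. Values of 3 reads or fewer are called the floor here, a limit that covers counting error only. Trf1+/+ replicate 1 and Trf1flox/flox replicate 2 had the most tested genes at the floor (34.4% and 20.0%), against 2.48% to 11.2% in the other 4. Of the 9 pathway genes, 4 were at the floor in Trf1+/+ replicate 1 and 4 in Trf1flox/flox replicate 2 (44.4% each). In Trf1+/+ replicate 3 and Trf1flox/flox replicate 1 there were 2 each, and in Trf1+/+ replicate 2 and Trf1flox/flox replicate 3 there were 0. The libraries are labelled as fibroblasts, but Col1a2 lay between 0 and 1.78 normalized counts, and only 2 of 8 fibroblast markers, Col1a2 and Dcn, had a row. Their sum ranged from 1.66 to 94.6 in Trf1+/+ and from 2.58 to 98.4 in Trf1flox/flox libraries. The 4 markers of the loop of Henle and distal tubule summed to between 72706 and 114170 and between 52806 and 136229, and the 8 of the proximal tubule to between 6522 and 42166 and between 17759 and 47367. The 5 collecting duct markers summed to between 474 and 5883 and between 935 and 18381. Of the other markers, 1 of 5 for endothelium, 3 of 6 for leukocytes, 4 of 4 for erythroid cells and 0 of 4 for podocytes had a row. The leukocyte markers summed to between 280 and 1283 in Trf1+/+ and between 0 and 2513 in Trf1flox/flox libraries, the erythroid markers to between 238 and 10432 and between 121 and 52110, and Pecam1 of endothelium lay between 0.859 and 12.0 in all 6. The part of the cell mixture in the results below was not tested, and in bulk RNA fewer cells of a type and less RNA per cell cannot be told apart.

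Terf1, the targeted gene, had 0.891, 253 and 235 normalized counts in Trf1+/+ replicates 1, 2 and 3 and 110.0, 7.65 and 12.4 in Trf1flox/flox replicates 1, 2 and 3. The library labelled Trf1+/+ replicate 1 held 1 read of Terf1, a low value for its label. As 34.4% of tested genes were at the floor in that library, this read count cannot settle its genotype. Trf1flox/flox replicate 1 held 128 reads of Terf1, the most of its group. On the log2 scale the groups differed in Terf1 by -1.04, with an adjusted p of 0.996 in limma and a standard error of 2.22, so a lower level of Terf1 was not detectable in Trf1flox/flox libraries, and all libraries are used as labelled. Itgb1, which encodes the sorting marker CD29, had 4.45 normalized counts in Trf1+/+ replicate 1, and between 360 and 1735 in the other 5 libraries.

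For no pathway gene did the difference between the genotypes pass a test against the spread between libraries, which was wide enough that sizeable differences could go undetected. With limma on log2(normalized count + 1), 0 of the 9 genes had an adjusted p under 0.05 (background over all tested genes 0%), and 0 of 9 had an unadjusted p under 0.05 (background 4.56%, 454 genes). On the recovered reads, edgeR called 0 of 9 (background 0%) and placed 0 of 9 under an unadjusted 0.05 (background 1.97%). DESeq2 called 0 of 9 (background 0.582%) and likewise placed 0 of 9 under an unadjusted 0.05 (background 4.11%). The libraries of the groups overlapped for all 9 genes, whereas they did not overlap for 8.68% of all tested genes. The log2 fold change, always given as Trf1flox/flox minus Trf1+/+, was above 0 for Lats2, Amotl2 and Stk3 and below 0 for the other 6. The median over the 9 genes was -0.68, beside 0.20 over all tested genes. With upper quartile scaling, edgeR and DESeq2 the split was 4 above and 5 below 0. The share of all tested genes above 0 was 63.9% with upper quartile scaling and 48.3% with edgeR and with DESeq2. Without both Trf1+/+ replicate 1 and Trf1flox/flox replicate 2 the median was 0.43, with 5 genes above 0, and again 0 of 9 had an adjusted p under 0.05. The same fit over all tested genes gave a median of 0.07, with 52.7% above 0 and 0% with an adjusted p under 0.05.

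Yap1 (ENSMUSG00000053110, chr9:7931999-8004596 on GRCm38, minus strand) had 82.8, 452 and 104 normalized counts in Trf1+/+ replicates 1, 2 and 3. It had 579, 26.2 and 149 in Trf1flox/flox replicates 1, 2 and 3. The highest and the lowest value were thus both Trf1flox/flox libraries, and the Trf1+/+ values lay between them. Its log2 fold change was -0.25 (standard error 1.40, 95% interval -3.65 to 3.15, adjusted p = 0.996 from limma), and it was 0.024 with upper quartile scaling, 0.21 with edgeR and 0.24 with DESeq2. Yap1 was the only 1 of the 9 genes above the floor in every library, with no fewer than 24 reads.

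Wwtr1 (ENSMUSG00000027803, chr3:57455649-57575910, minus strand) encodes TAZ, the paralog of YAP. It had 0, 342 and 23.6 normalized counts in Trf1+/+, against 4.30, 1.09 and 184 in Trf1flox/flox libraries. A single library of each genotype, Trf1+/+ replicate 2 and Trf1flox/flox replicate 3, held nearly all of its reads (413 and 267), and the groups overlapped. The difference on the log2 scale was -0.68 (standard error 2.63, 95% interval -7.08 to 5.72, adjusted p = 0.996 from limma). Without Trf1+/+ replicate 2 it was 1.36, and without Trf1flox/flox replicate 2 it was 0.62.

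A ratio of paralogs within a library cancels the scaling of that library, except where a gene is near 0 and the added pseudocount of 1 sets the value. The log2 ratio of Wwtr1 to Yap1 was -6.39, -0.40 and -2.10 in Trf1+/+, against -6.78, -3.70 and 0.30 in Trf1flox/flox libraries. In both genotypes it spread over several log2 units, and the group means differed by -0.43 (exact two-sided permutation test, p = 0.9, 0.9 after adjustment over 3 pairs). Wwtr1 held 0 reads in Trf1+/+ replicate 1 and 1 in Trf1flox/flox replicate 2. With 3 libraries against 3 the smallest p possible is 0.1.

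Tead1 encodes a TEAD protein through which YAP and TAZ reach DNA (ENSMUSG00000055320, chr7:112679318-112906807, plus strand). It had 295, 122 and 154 normalized counts in Trf1+/+, against 436, 1.09 and 198 in Trf1flox/flox libraries. The 3 Trf1+/+ libraries and 2 of the Trf1flox/flox libraries lay between 122 and 436, and Trf1flox/flox replicate 2 held 1 read. This gave a log2 fold change of -1.65 (standard error 2.09, 95% interval -6.74 to 3.44, adjusted p = 0.996 from limma). It was 0.73 without Trf1flox/flox replicate 2, 0.26 with edgeR and 0.18 with DESeq2.

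**Figure D1:**
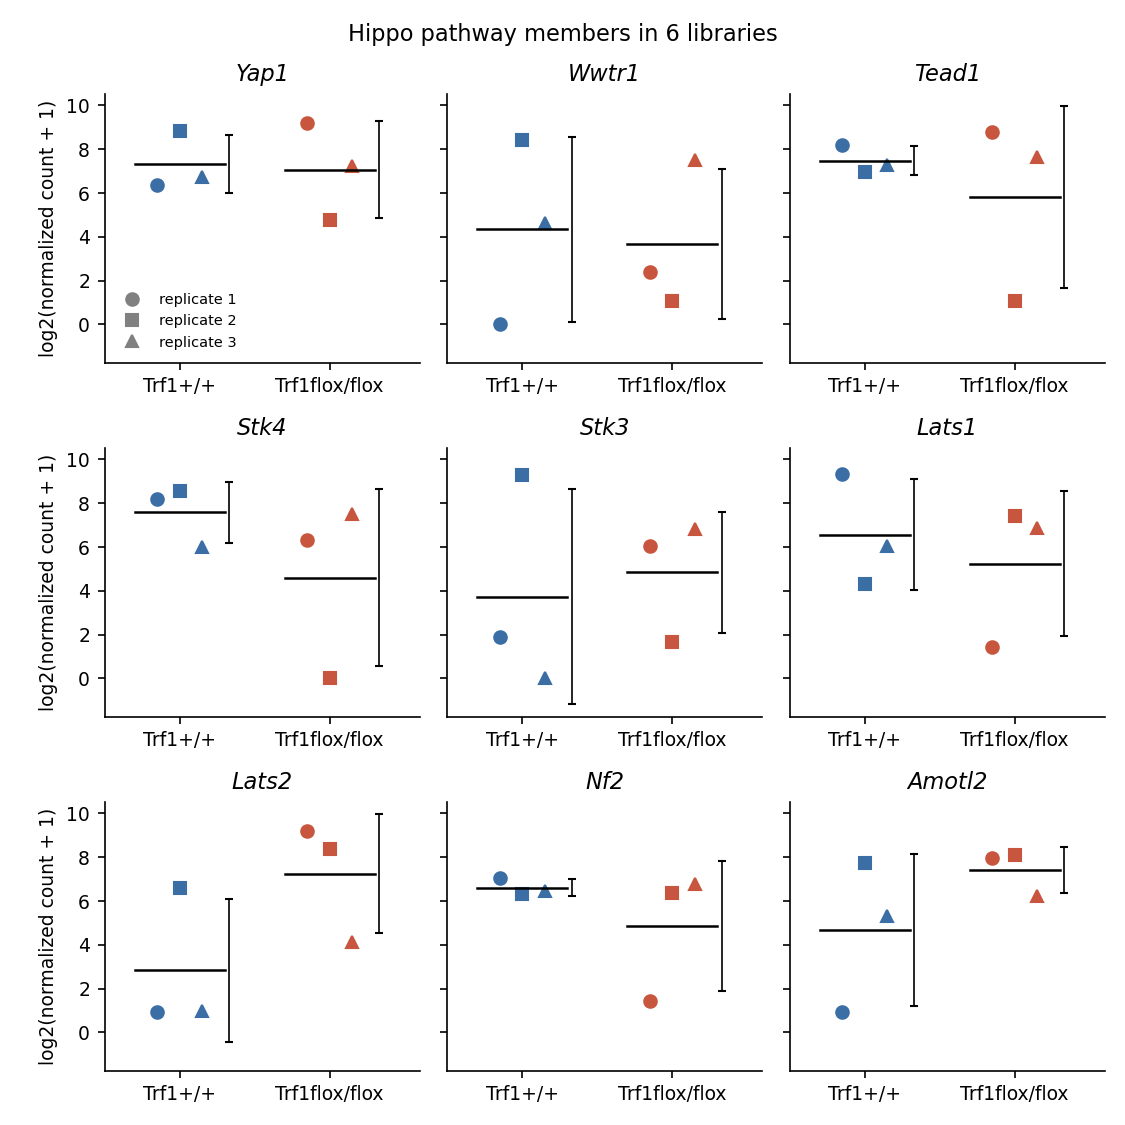
Normalized counts of the 9 pathway genes in the 6 libraries, on a log2 scale after adding 1. Each symbol is a library (its shape gives the replicate number, which pairs no mice), horizontal lines are group means and error bars are 1 SD with n = 3. The groups overlap in all 9 panels. Libraries near 0 pull down the Trf1flox/flox mean in Tead1, Stk4, Lats1 and Nf2 and the Trf1+/+ mean in Amotl2 and Lats2. In Stk3 and Wwtr1 such libraries pull down both means.

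None of the 4 kinase genes passed the test. Stk4 encodes MST1 (ENSMUSG00000018209, chr2:164070322-164155524, plus strand), a kinase at the top of the core cascade. It had 293, 375 and 62.1 normalized counts in Trf1+/+, against 78.2, 0 and 179.9 in Trf1flox/flox libraries. Its highest values were Trf1+/+ libraries and its only 0 was Trf1flox/flox replicate 2, but Trf1+/+ replicate 3 lay below 2 Trf1flox/flox libraries. The log2 fold change of Stk4 was -2.98 (standard error 2.11, 95% interval -8.12 to 2.17, adjusted p = 0.996 from limma), the lowest of the 9 genes. Without Trf1flox/flox replicate 2 it was -0.68, and it was -1.38 with edgeR and -1.48 with DESeq2.

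Stk3 encodes MST2, the paralog of MST1 (ENSMUSG00000022329, chr15:34875496-35178921, minus strand). It had 2.67, 626 and 0 normalized counts in Trf1+/+, against 64.4, 2.19 and 111 in Trf1flox/flox libraries. Trf1+/+ replicate 2 held the highest value and Trf1+/+ replicate 3 the lowest, so the Trf1flox/flox values fell inside the Trf1+/+ range. The fitted log2 fold change was 1.11 (standard error 2.73, 95% interval -5.52 to 7.75, adjusted p = 0.996 from limma). It turned to -1.83 with edgeR and -1.82 with DESeq2. The mean of its normalized counts was higher in Trf1+/+ (210 ± 361, SD, n = 3) than in Trf1flox/flox libraries (59.2 ± 54.6, SD, n = 3).

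The log2 ratio of Stk4 to Stk3 was 6.32, -0.74 and 5.98 in Trf1+/+, against 0.28, -1.67 and 0.69 in Trf1flox/flox libraries. Stk3 was at the floor in both Trf1+/+ libraries with a high ratio, and Trf1+/+ replicate 2 lay among the Trf1flox/flox values. In Trf1flox/flox replicate 2 both genes were at the floor, with 0 and 2 reads. The group means differed by -4.09 (exact two-sided permutation test, p = 0.3, 0.45 after adjustment over 3 pairs), by -6.39 without Trf1+/+ replicate 2 and by -2.03 with a pseudocount of 10.

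Lats1 encodes a kinase that phosphorylates YAP and TAZ (ENSMUSG00000040021, chr10:7681214-7716460, plus strand). It had 639.5, 19.1 and 65.0 normalized counts in Trf1+/+, against 1.72, 168 and 116 in Trf1flox/flox libraries. The highest value was the library labelled Trf1+/+ replicate 1 and the lowest Trf1flox/flox replicate 1, with the other 4 libraries mixed between them. The log2 fold change was -1.32 (standard error 2.07, 95% interval -6.36 to 3.71, adjusted p = 0.996 from limma). It was 0.06 without the former library and 0.57 without the latter.

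Lats2 encodes the other LATS kinase, and its gene is itself widely used as a YAP target (ENSMUSG00000021959, chr14:57689662-57758388, minus strand). It had 0.891, 95.3 and 0.985 normalized counts in Trf1+/+, against 589, 334 and 16.5 in Trf1flox/flox libraries. Trf1+/+ replicates 1 and 3 held 1 read each and Trf1flox/flox replicates 1 and 2 held 685 and 306. Trf1+/+ replicate 2, with 115 reads, lay above Trf1flox/flox replicate 3, with 24, so the groups overlapped. Its log2 fold change was 4.41 (standard error 2.10, 95% interval -0.71 to 9.53, unadjusted p = 0.0799, adjusted p = 0.996 from limma). It was the largest of the 9 genes and ranked 692 of 9966 tested genes by the absolute size of its statistic. Lats2 kept its direction with each library left out in turn, between 3.43 and 6.29, and was 3.14 with edgeR and 3.26 with DESeq2. As 2 of the Trf1+/+ libraries are at the floor, the size of the fitted change depends on the pseudocount: it was 4.68 with 0.5 and 2.92 with 10.

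The annotation places Gm49361, a protein-coding gene on the same strand, over 2955 exon bases of Lats2 (42.4%). Gm49361 had no row in the table. Reads of the shared part cannot be assigned to either gene alone, so the level of Lats2 is uncertain to that extent. For Yap1 the overlap was 116 exon bases (1.25%) with Gm20416, on the opposite strand, and the libraries do not mark strand.

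The log2 ratio of Lats2 to Lats1 was -8.40, 2.26 and -5.06 in Trf1+/+, against 7.76, 0.99 and -2.74 in Trf1flox/flox libraries. The lowest 2 ratios were Trf1+/+ and the highest was Trf1flox/flox replicate 1, while Trf1+/+ replicate 2 lay above 2 Trf1flox/flox libraries. The ratio of 7.76 rests on 2 reads of Lats1, and the ratios of -8.40 and -5.06 each rest on 1 read of Lats2. The group means differed by 5.73 (exact two-sided permutation test, p = 0.3, 0.45 after adjustment over 3 pairs), by 2.85 without Trf1flox/flox replicate 1, by 3.40 without Trf1+/+ replicate 1, by 8.73 without Trf1+/+ replicate 2 and by 3.73 with a pseudocount of 10.

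**Figure D2:**
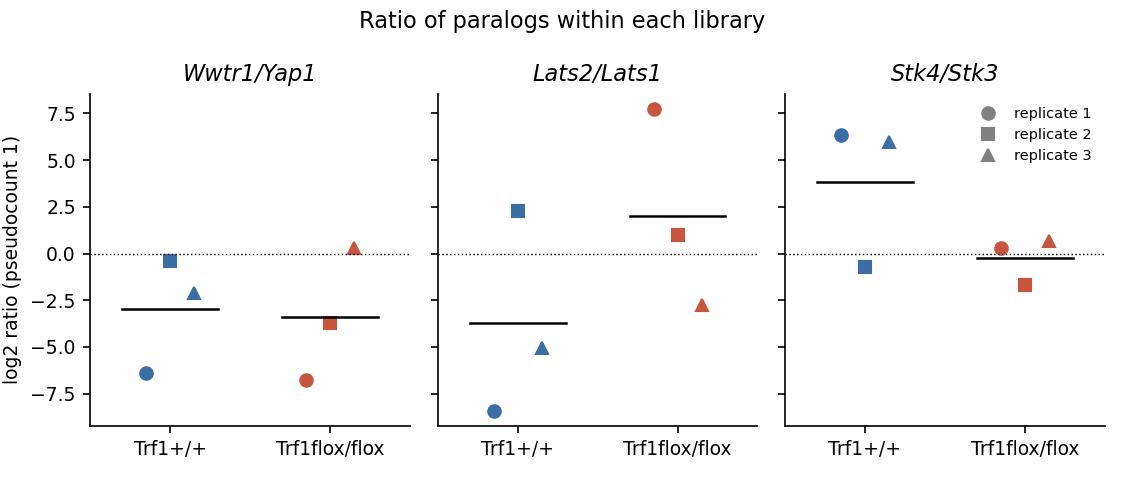
Log2 ratio of the paralogs Wwtr1 to Yap1, Lats2 to Lats1 and Stk4 to Stk3 within each library, with a pseudocount of 1. Symbols are libraries and horizontal lines are means of 3 libraries. The means differ by 5.73 for Lats2 to Lats1 and by -4.09 for Stk4 to Stk3, but the groups overlap in all 3 panels.

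Nf2 encodes merlin, which links the cell cortex to the core kinases (ENSMUSG00000009073, chr11:4765845-4849536, minus strand). It had 131, 79.5 and 86.7 normalized counts in Trf1+/+, against 1.72, 80.9 and 109 in Trf1flox/flox libraries. Of the 6 libraries 5 lay between 79.5 and 131, and Trf1flox/flox replicate 1 held 2 reads. The difference on the log2 scale was -1.75 (standard error 1.57, 95% interval -5.56 to 2.06, adjusted p = 0.996 from limma). Without Trf1flox/flox replicate 1 it was -0.04, so the difference rested on that library.

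Amotl2 encodes an angiomotin, a junction protein that binds and restrains YAP and whose gene is also used as a YAP target (ENSMUSG00000032531, chr9:102716672-102733418, plus strand). It had 0.891, 215 and 39.4 normalized counts in Trf1+/+, against 251, 274 and 73.7 in Trf1flox/flox libraries. The highest 2 values were Trf1flox/flox and the lowest 2 were Trf1+/+, with Trf1+/+ replicate 2 above Trf1flox/flox replicate 3. This gave a log2 fold change of 2.77 (standard error 1.83, 95% interval -1.70 to 7.23, adjusted p = 0.996 from limma). Leaving out the library labelled Trf1+/+ replicate 1, which held 1 read of Amotl2, gave 0.89, and edgeR and DESeq2 gave 1.11 and 1.22.

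**Figure D3:**
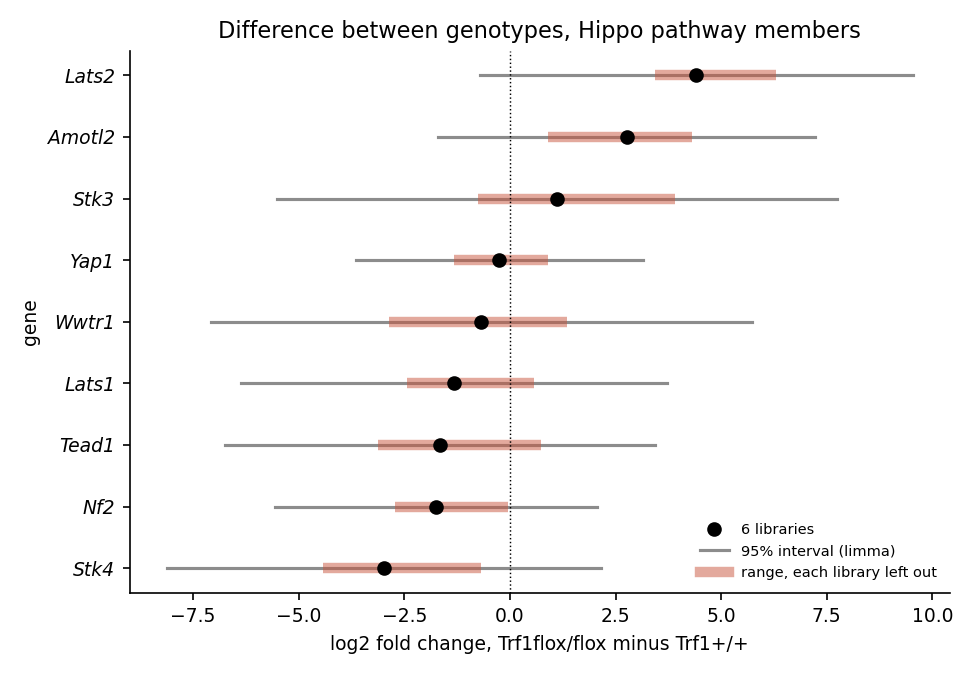
Log2 fold change of the 9 pathway genes, Trf1flox/flox minus Trf1+/+, on the log2(normalized count + 1) scale. Dots use 6 libraries, thin lines are 95% intervals from limma and thick bars span the values with each library left out in turn. All 9 intervals include 0, and the thick bars of Lats2, Amotl2, Nf2 and Stk4 stay on one side of it.

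The spread within the genotypes was wide for most of these genes. The within-group SD on the log2 scale had a median of 2.98 over the 9 genes and 2.17 over all tested genes, and 7 of the 9 lay above the latter. Stk3 had the widest spread (3.99) and Yap1 the narrowest (1.82). Levels of different genes were compared per kilobase of exons, since long transcripts collect more reads. By the median over the 6 libraries, Amotl2 (22.9 normalized counts per kb) and Stk4 (22.0) were highest. Yap1 (13.7), Tead1 (13.0), Lats1 (12.4) and Nf2 (12.3) followed closely. Lats2 (8.02), Stk3 (5.49) and Wwtr1 (2.92) were lowest. The ranges of all neighbours in this order overlapped, so the order is not resolved.

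The genes whose pattern over the 6 libraries was nearest to that of an effector were found by the root mean square (RMS) difference of centred log2 values. For Yap1 these were Hsd17b12 (0.41), Pomgnt1 (0.43) and Smg1 (0.47). For Wwtr1 they were Git1 (0.41), Ppard (0.53) and Pex11g (0.74). Hsd17b12 had 115, 888 and 117 normalized counts in Trf1+/+, against 906, 45.9 and 418 in Trf1flox/flox libraries, with the same libraries at the top and bottom as Yap1. Git1 was at 0, 218 and 15.8 and at 4.30, 0 and 96.5. The likeness is a description over 6 libraries picked from all tested genes outside the lists.

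A wider list held 73 other components of the pathway, of which 59 had a row and 52 were tested. None of the 52 had an adjusted p under 0.05 in limma, edgeR or DESeq2 (background 0%, 0% and 0.582%). In limma 1 of the 52, Csnk1e, had an unadjusted p under 0.05 (background 4.56%), and Csnk1e passed the filter through the Trf1flox/flox libraries alone. The log2 fold change was above 0 for 31 and below 0 for 21, with a median of 0.24 beside 0.20 over all tested genes. Over all tested genes 55.9% were above 0. By role, 5 of the 6 genes encoding 14-3-3 proteins, which hold phosphorylated YAP in the cytoplasm, were above 0 (median 0.49), and 4 were with DESeq2. Both tested LIM-domain inhibitors of LATS were above 0 (median 2.22, and 1.06 with edgeR), as were the 3 genes of LATS turnover (median 0.48). Of the 9 upstream scaffolds 5 were above 0 with limma and 2 with edgeR and DESeq2. Of the 8 upstream MAP4K, TAO and MINK kinases 3 were above 0 and 5 below (median -0.50), and the 12 members of the STRIPAK phosphatase complex, which opposes MST kinases, were split 6 and 6 (median 0.31). These values come from genes that did not pass the test. With edgeR the whole list was split 27 above and 25 below 0, and 48.3% of all tested genes were above 0.

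The gene with the largest statistic in the wider list was Csnk1e, which encodes casein kinase 1 epsilon, a kinase that marks YAP for degradation after LATS has acted. It had 0, 3.31 and 0.985 normalized counts in Trf1+/+, against 85.9, 163 and 21.4 in Trf1flox/flox libraries. The Trf1+/+ libraries held at most 4 reads each, so Csnk1e passed the filter through the Trf1flox/flox libraries alone and could only be tested because it was high there. The fitted log2 fold change was 5.06 (standard error 1.10, adjusted p = 0.343 from limma, 0.426 in DESeq2 and 0.999 in edgeR). Next came Vgll4, a rival of YAP for TEAD (2.97), Map4k4 (3.58), Strn of STRIPAK (2.67), the 14-3-3 gene Ywhag (3.44), Wwc2, a KIBRA relative (2.97), Map4k2 (2.63) and Ywhab, another 14-3-3 gene (1.42). These are log2 fold changes, each with an adjusted p of 0.996 from limma. With edgeR they were 1.69 for Vgll4, 1.34 for Map4k4, 1.47 for Strn and 1.85 for Ywhag, and without the library labelled Trf1+/+ replicate 1 they were 1.35 for Ywhag and 1.16 for Map4k2. Of these 7 genes, Ywhag, Wwc2 and Ywhab had groups that did not overlap. Wwc2 had 7.13, 344 and 308 normalized counts in Trf1+/+, against 1334, 576 and 535 in Trf1flox/flox libraries. Ywhab had 268, 945 and 837 and 1664, 1777 and 1380. In both, the lowest value was the library labelled Trf1+/+ replicate 1, and without it the log2 fold changes were 1.19 for Wwc2 and 0.84 for Ywhab, the lowest with any library left out.

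The groups did not overlap for 9 of the 52 genes (17.3%, background 8.68%), 7 of them above in Trf1flox/flox and 2 below. Of the 9, Csnk1e is a gene whose separation the filter required, as it did for 149 (17.2%) of the 865 non-overlapping genes overall. The 2 below were Mob4 and Ywhaq, named after their values were seen. With upper quartile scaling it was 6 genes (11.5%, background 8.69%), all above, and neither Mob4 nor Ywhaq was among them. With that scaling 645 of all tested genes lay above in Trf1flox/flox and 221 below, in place of 533 and 332.

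The output of the pathway was read from 20 genes widely used as YAP and TAZ targets. Of these 13 had a row and 11 were tested; Ccn2, Axl and 5 others were not analysed here. Ankrd1, an often used target, held 2 reads in Trf1flox/flox replicate 1 and 0 in the other 5 libraries, and Rbms3 reached 106 normalized counts in Trf1flox/flox replicate 1 and at most 1.97 elsewhere, so both fell under the filter. None of the 11 had an adjusted p under 0.05 in limma, edgeR or DESeq2, which gave none for Nt5e (background 0%, 0% and 0.582%). In limma 1 of the 11, F3, had an unadjusted p under 0.05 (background 4.56%), and F3 passed the filter through the Trf1flox/flox libraries alone. The log2 fold change was above 0 for 7 and below 0 for 4, with a median of 0.37. With edgeR and DESeq2 it was above 0 for 3 and below 0 for 8, with medians of -0.47 and -0.63. Over all tested genes 55.9% were above 0 with limma and 48.3% with edgeR and with DESeq2. Without Trf1+/+ replicate 3 the split of the targets was also 3 and 8 (median -0.70), so their direction depended on the tool and on single libraries.

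F3, which encodes tissue factor, had 0, 0 and 0.985 normalized counts in Trf1+/+, against 26.6, 17.5 and 158 in Trf1flox/flox libraries. The Trf1+/+ libraries together held 1 read, so F3 also passed the filter through the Trf1flox/flox libraries alone. The log2 fold change was 5.11 (standard error 1.08, adjusted p = 0.316 from limma, 0.387 in DESeq2 and 0.999 in edgeR), and its size depends on the pseudocount. Gadd45a, a growth arrest gene, had 679, 344 and 303 in Trf1+/+, against 147, 72.1 and 251 in Trf1flox/flox libraries, with every Trf1+/+ library above every Trf1flox/flox library. Its log2 fold change was -1.57 (standard error 0.88, adjusted p = 0.996 from limma). The groups did not overlap for these 2 of the 11 genes (18.2%, background 8.68%), and for F3 the filter required it, so the count says little of the targets.

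Ccn1, which encodes the matrix protein CYR61 and is among the most used targets, had 0, 351 and 124 normalized counts in Trf1+/+, against 157, 0 and 0 in Trf1flox/flox libraries. It was at 0 in 3 libraries, 1 of them Trf1+/+, and its log2 fold change was -2.71 (standard error 2.97, adjusted p = 0.996 from limma). The others named by the size of their statistic were Asap1 (-2.13), Myof (1.70), Nt5e (1.76), Crim1 (-0.36) and Nuak2 (0.37), given as log2 fold changes with the same adjusted p of 0.996 from limma. Crim1 and Nuak2 were measured in every library, at 179 to 482 and at 167 to 690 normalized counts. Myof and Nt5e turned below 0 with edgeR (-0.24 and -1.08) and DESeq2 (-0.17 and -1.33).

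**Figure D4:**
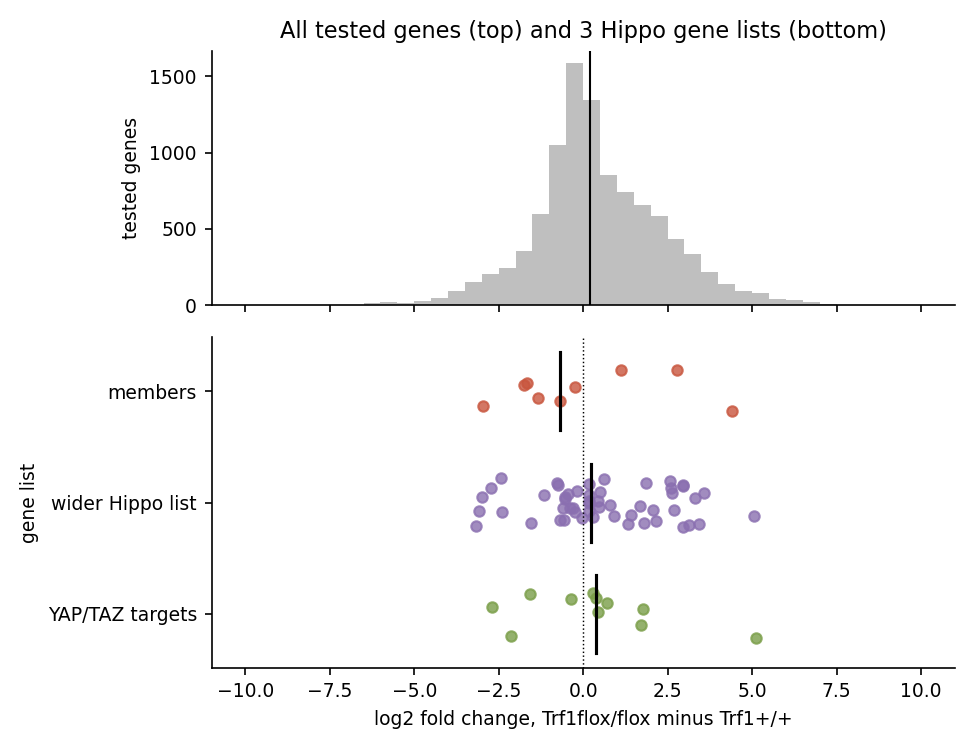
Log2 fold change, Trf1flox/flox minus Trf1+/+, of all 9966 tested genes as a histogram (top) and of the genes of 3 lists as dots (bottom). The vertical lines are medians: 0.20 over all tested genes, -0.68 for the 9 pathway genes, 0.24 for the wider list and 0.37 for the YAP and TAZ targets. Dots of each list lie on both sides of 0.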

How the data were processed

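Libraries were made from 500 sorted cells with oligo(dT) priming, template switching and PCR, without molecular identifiers, and are non-directional. The authors trimmed the reads, aligned them with TopHat2 2.0.10 (Bowtie 1.0.0, SAMtools 0.1.19) and counted them with HTSeq 0.6.1 on GENCODE genes. The study's methods name GRCm38 and a stranded TopHat library type, the submitters' processing notes list GRCm39, and the strand setting of the counting is not given in the sources used here. The deposited values are normalized counts, a signal in which the authors divided the reads of each gene by 1 size factor per library. All values (100%) are whole multiples of 1 read within a tolerance of 1e-06, so the reads were recovered.

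Genes with 10 or more normalized counts in 3 or more libraries were tested with limma 3.58.1 (R 4.3.3) on log2(normalized count + 1), with Benjamini-Hochberg adjustment over all tested genes. A log2 fold change on this scale can be smaller or larger than with edgeR where libraries are near the floor. For F3 it was 5.11 on this scale and 7.40 with edgeR, and for Stk4 it was -2.98 and -1.38. Alternatives were edgeR 4.0.16 (quasi-likelihood, TMM) and DESeq2 1.42.0 on the recovered reads, pseudocounts of 0.5 and 10, no filter, upper quartile scaling and each library left out. The limma, edgeR and DESeq2 fits were tested on simulated counts with a narrower spread between libraries than these data. The other steps were not tested in this way. Exon lengths, loci and overlaps are from GENCODE vM21 (GRCm38). Replicates were numbered within a genotype by order of deposition. The named genes are all pathway genes, Terf1, Itgb1, the 8 genes of each of the 2 lists with the largest statistic and the 3 genes nearest to Yap1 and to Wwtr1. Members and lists were chosen with earlier results of these data known.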

Additional observations from a re-analysis of the deposited data

How the results depend on the processing

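The 12 alternatives that can change a log2 fold change include the fit without both Trf1+/+ replicate 1 and Trf1flox/flox replicate 2, described below. Over the 12, 91 of the 108 recomputed values of the pathway genes kept their direction and 17 reversed, 8 of these with 1 library left out. Lats2, Amotl2, Nf2 and Stk4 reversed under none, and no adjusted p fell under 0.05. Yap1 (-0.25) was 0.024 with upper quartile scaling, 0.21 with edgeR and 0.24 with DESeq2. Tead1 (-1.65) was 0.26 and 0.18, and Stk3 (1.11) was -1.83 and -1.82, with edgeR and DESeq2. With each library left out, the values ranged from -1.31 to 0.89 for Yap1, -2.86 to 1.36 for Wwtr1, -3.12 to 0.73 for Tead1, -0.75 to 3.90 for Stk3, -2.44 to 0.57 for Lats1, and -2.28 to 1.26 for the difference in the log2 ratio of Wwtr1 to Yap1 (-0.43). Over all tested genes, DESeq2 called 58 genes (46 higher, 12 lower), limma 0 and edgeR 0. The cause of these changes was not tested.

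Alternatives chosen after seeing the data were limma with a variance trend over mean expression, and the fit without both Trf1+/+ replicate 1 and Trf1flox/flox replicate 2. The first changes only the variances and cannot change a log2 fold change or its direction. It gave Lats2 an unadjusted p of 0.114 in limma and placed 312 genes (209 higher, 103 lower) under an unadjusted 0.05 in place of 454. In the second, Yap1 was 0.43 and Tead1 1.10, Wwtr1 was -1.56, Stk4 shrank to -0.36 and Amotl2 to 0.56. The median of all tested genes was 0.44 with upper quartile scaling and -0.04 with edgeR. With 3 libraries a genotype and 95% intervals several log2 units wide, sizeable differences could have gone undetected, and how large differs by gene. No paired analysis was possible because the replicate numbers follow the order of deposition and pair no mice.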
